A study of Rattus norvegicus with 12 samples.

Results

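Serpins are proteins that share one fold, and most of them stop serine proteases by offering an exposed loop as bait: the protease cuts the loop and is trapped in a permanent complex. Liver secretes much of the serpin content of plasma, including antitrypsin, antithrombin, heparin cofactor II, antiplasmin and C1 inhibitor. Some members inhibit nothing and serve as carriers of hormones, as Serpina6 and Serpina7 do, or as a collagen chaperone, as Serpinh1 does. Members of clade B stay mostly inside cells. The serpin genes were taken from the platform annotation of the array by their symbols, Serpin followed by a clade letter from a to i and a number, on rows with a single symbol. This gave 46 genes of 18166 genes with a single symbol, each with 1 transcript cluster on the array, of which 18 belong to clade A, 18 to clade B and 10 to clades C to I.

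Liver RNA came from 12 male obese Zucker rats with 2 defective copies of the leptin receptor gene (fa/fa, Crl:ZUC-Leprfa), 5 to 6 weeks old at the start and killed on day 29. The PSC group (6 rats) had eaten for 4 weeks a diet with 5% PSC, the labels' name for the supplement, which the series title calls a biotechnologically produced oyster mushroom. The control group (6 rats) had eaten a diet of comparable energy and crude nutrients without it. Each feeding group held 12 rats, and 6 rats per diet have arrays here. All rats of both groups carried the leptin receptor defect, and lean rats were not analysed here. The comparison asks what the supplement changed in the liver.

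Each rat had its own Affymetrix Rat Gene 2.0 ST array, and values are log2 signals of a transcript cluster as the authors deposited them. Array medians lay between 4.71 and 4.85, and across genes the correlation of 2 arrays was at least 0.987. Precision is set by the number of arrays. Rats were caged in pairs, and cage mates are not named in the labels. Hepatocyte markers were bright, with mean log2 signals from 9.71 to 13.16, and 0 of 8 measured passed the test between the diets. Signals of different genes come from different probes, so levels are compared only between arrays for one gene. The RNA is from whole tissue, in which fewer cells of a type and less RNA per cell cannot be told apart.

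Of the 46 serpin genes 3 fell in PSC-fed rats and 0 rose (limma, adjusted p below 0.05 over all 18166 genes). The 3 were Serpina7, the thyroxine carrier, Serpinb9, the inhibitor of granzyme B, and Serpinh1, the collagen chaperone, and they belong to different clades. These are 6.52% of the serpins lower and 0% higher, beside 1.89% and 0.716% of all genes. None of the 3 passed when all transcript clusters of the array were tested, with adjusted p from 0.0512 to 0.0656. The count was also 0 without PSC replicate 1, 5 or 6 or control replicate 1, 4 or 6, and 1 without control replicate 3. At an unadjusted p below 0.05, 5 serpins were lower and 4 higher, which is 10.9% and 8.7% of them, and the same shares over all genes were 10.1% and 9.02%. The median log2 fold change of the serpins was 0.04, beside 0.01 for all genes, with 29 values above 0 and 17 below. The 10 serpins with a mean log2 signal of at least 10, all of them secreted plasma proteins, had values between -0.09 and 0.25, and none of the 10 passed. Of these values 8 were above 0 and 2 below. Their median was 0.07, beside 0.0033 for the 389 genes of all kinds with such signals, a difference that was not tested.

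**Figure D1:**
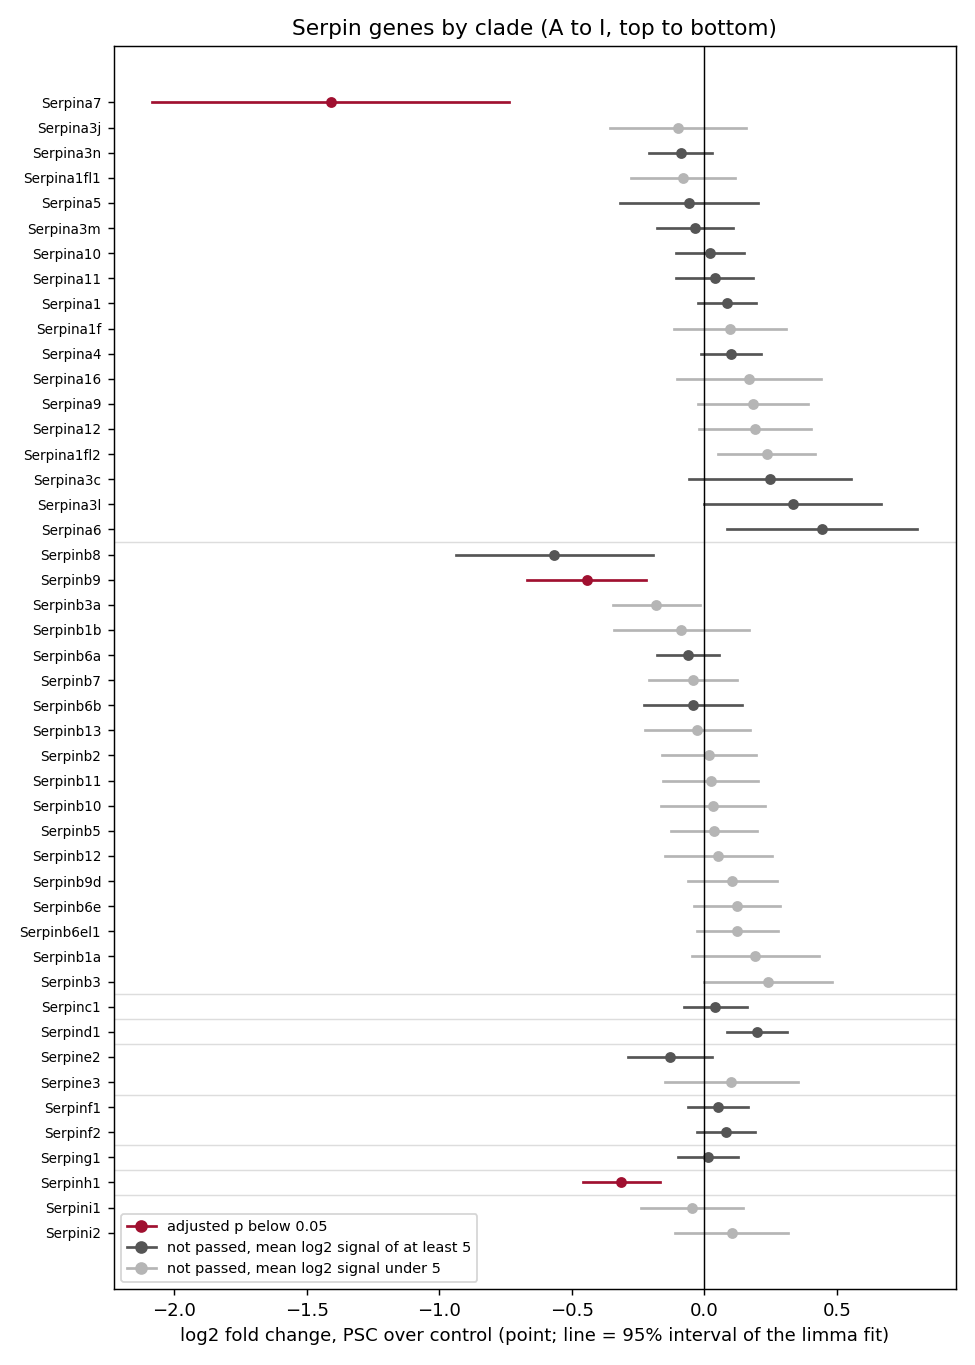
Log2 fold change (PSC over control, x axis) of the 46 serpin genes, ordered by clade from A at the top to I at the bottom, with lines for the 95% interval of the limma fit (n = 6 arrays per diet). Serpina7, Serpinb9 and Serpinh1, in red, are the 3 that passed, and Serpina7 at -1.41 lies apart from the remaining members of clade A.

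The 2 hormone carriers of clade A had values of opposite sign. Serpina7 encodes thyroxine-binding globulin, a serpin that binds thyroid hormone in plasma. Its transcript cluster (17878983) had log2 signals of 4.74, 5.70, 4.65, 6.10, 3.94 and 4.41 in PSC replicates 1 to 6, against 6.93, 5.89, 5.88, 6.60, 6.04 and 6.66 in control replicates 1 to 6. In 5 of 6 PSC-fed rats the signal was below every control, while PSC replicate 4 lay within the range of the controls. Serpina7 averaged 4.92 ± 0.82 in PSC-fed rats and 6.33 ± 0.45 in control rats (SD, n = 6), a fall of 2.66-fold (log2 fold change -1.41, SE 0.32, limma adjusted p = 0.0332). The spread among the PSC-fed rats was the widest within a group of any serpin. With 1 array left out, 5 of 12 fits kept the call. It was lost without PSC replicates 1, 3, 5 or 6 and without control replicates 1, 4 or 6, with adjusted p from 0.0579 to 0.0806, and the log2 fold change stayed between -1.65 and -1.21. It was also lost with a variance prior that follows the signal (adjusted p = 0.0597).

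The 250 bases before the start of Serpina7 (RefSeq, GRCr8, chrX:107457682-107457931, minus strand) are shown because this member moved furthest, with matches to GTTAAT, a part of the site of the liver factor HNF1, and to TTGCNNAA, a C/EBP type site, in capitals on either strand.
Serpina7: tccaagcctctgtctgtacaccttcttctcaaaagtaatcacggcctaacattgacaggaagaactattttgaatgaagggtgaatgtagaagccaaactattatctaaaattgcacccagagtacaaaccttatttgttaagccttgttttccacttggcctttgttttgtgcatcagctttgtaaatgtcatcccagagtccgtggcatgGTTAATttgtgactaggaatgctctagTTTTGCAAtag
The GTTAAT match begins 38 bases before the start and the C/EBP type match 11 bases before it. Of 33469 promoter windows of this length in the table, 6.45% hold the first and 9.22% the second, and Serpina4 was the only other serpin with both. Both are short letter matches and describe the sequence only.

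Serpina6 encodes corticosteroid-binding globulin, the plasma carrier of glucocorticoids. Its log2 signals were 10.21, 9.37, 9.92, 9.23, 9.75 and 10.23 in PSC replicates 1 to 6, against 9.24, 9.47, 9.49, 9.38, 9.57 and 8.90 in control replicates 1 to 6. PSC replicates 1, 3, 5 and 6 lay above every control, and PSC replicates 2 and 4 within the controls. The means were 9.79 ± 0.42 in PSC-fed rats and 9.34 ± 0.24 in control rats (SD, n = 6). The difference of 0.44 did not pass (SE 0.17, 95% interval 0.08 to 0.80, limma adjusted p = 0.168). The PSC arrays nearest to the controls for Serpina6, replicates 2 and 4, were also those nearest to the controls for Serpina7. Over all genes, leaving out PSC replicate 4 gave the most calls of any array left out, 543 lower and 192 higher. Whether the nearness of this array to the controls is particular to the genes named here was not tested.

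Genes that handle the 2 hormones were set beside their carriers. Of 14 measured genes of thyroid hormone handling 2 rose and 0 fell, beside 0.716% and 1.89% of all genes. Their median log2 fold change was 0.08, beside 0.01 for all genes. Slc16a10, a transporter of aromatic amino acids that also carries thyroid hormone, rose by 0.61 (SE 0.13, limma adjusted p = 0.0238), and Rxra, the receptor that pairs with thyroid hormone receptors and many other nuclear receptors, by 0.32 (SE 0.06, adjusted p = 0.0186). Slc16a10 was also lowest in replicate 4 among the PSC arrays, at 6.59 against 6.33 to 6.64 in control rats. Ttr, which encodes transthyretin, a further carrier of thyroxine, had 0.10 (95% interval -0.01 to 0.20). Of 14 measured genes of glucocorticoid handling and response 0 passed in either direction, and the median was -0.02. Pck1, which encodes the gluconeogenic phosphoenolpyruvate carboxykinase, and the metallothionein gene Mt2A had the smallest p of that list, with 0.51 (adjusted p = 0.075) and -0.60 (adjusted p = 0.161).

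Of the 14 measured binding and transport proteins of plasma outside the serpins, 1 fell and 1 rose, beside 1.89% and 0.716% of all genes. Their median was 0.02, beside 0.01 for all genes. Orm1, which encodes an acid glycoprotein of the acute phase, fell by 0.37 on the log2 scale (SE 0.08, limma adjusted p = 0.0267), and Igfals, the stabilising subunit of the circulating IGF complex, rose by 0.42 (SE 0.11, adjusted p = 0.0484). Alb, which encodes albumin, had -0.0017.

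**Figure D2:**
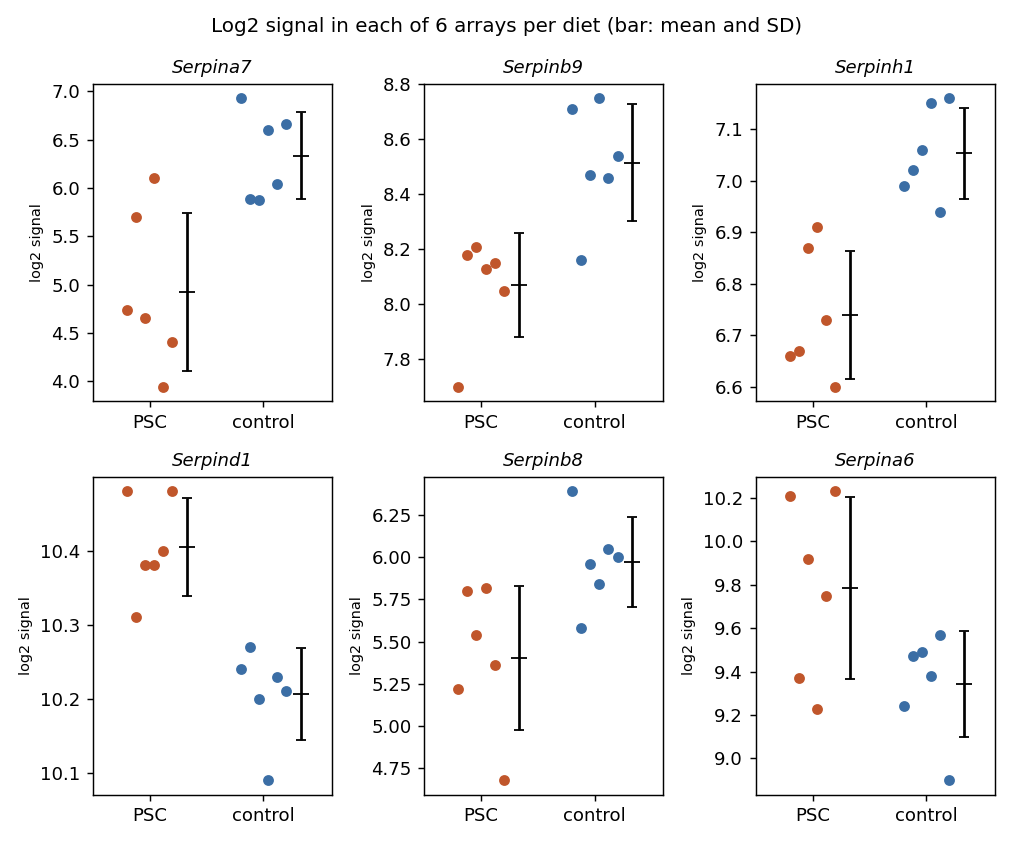
Log2 signal (y axis, a scale of its own in each panel) of 6 serpin genes in the 6 PSC arrays and the 6 control arrays, with 1 point per rat and bars for the mean and SD. The diets do not overlap for Serpinh1 and Serpind1. For Serpina7, Serpinb8 and Serpina6 some PSC arrays lie within the controls, and for Serpinb9 1 control lies among the PSC arrays.

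The protease inhibitors of clade A did not pass in either direction. According to RefSeq (GRCr8), 17 of the 18 clade A genes lie on chromosome 6 and Serpina7 on chromosome X. Serpina1 encodes antitrypsin, the main plasma inhibitor of neutrophil elastase. It averaged 11.85 ± 0.03 in PSC-fed rats and 11.77 ± 0.08 in control rats (SD, n = 6), a difference of 0.09 with a 95% interval from -0.03 to 0.20. Serpina4, named for kallistatin, an inhibitor of tissue kallikrein, had 0.10 (95% interval -0.01 to 0.21). Serpina10, the cofactor-dependent inhibitor of coagulation factor Xa, had 0.02 (95% interval -0.11 to 0.15) and Serpina11 had 0.04 (95% interval -0.11 to 0.18).

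The Serpina3 genes form a cluster that expanded in rodents, and differ among themselves in the loop that meets the protease. RefSeq lists kallikrein-binding protein and a growth hormone-regulated inhibitor among the synonyms of Serpina3c, and Serpina3n is known as an acute phase gene. Serpina3l had log2 signals of 6.97, 7.32, 7.32, 6.98, 7.29 and 7.54 in PSC replicates 1 to 6, against 6.88, 7.21, 7.14, 6.38, 7.31 and 6.50 in control replicates 1 to 6. The groups overlap, and the low values are those of control replicates 4 and 6. Serpina3c had 11.40, 11.65, 11.82, 11.56, 11.62 and 11.90 in PSC replicates 1 to 6, against 11.46, 11.61, 11.63, 11.20, 11.78 and 10.79 in control replicates 1 to 6. Here too the 2 lowest arrays were control replicates 4 and 6, and the highest was PSC replicate 6 for both genes. Control replicate 6 was also the lowest of the 12 arrays for Serpina6. The differences of 0.33 for Serpina3l (SE 0.16, limma adjusted p = 0.262) and 0.25 for Serpina3c (SE 0.14, adjusted p = 0.364) did not pass. Without control replicate 6 the value of Serpina3c was 0.12. Serpina3n had -0.09 (95% interval -0.21 to 0.03), with 12.54 ± 0.06 in PSC-fed rats and 12.63 ± 0.08 in control rats, and Serpina3m had -0.04 (95% interval -0.18 to 0.11). Probes for these genes may also bind transcripts of their close relatives.

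**Figure D3:**
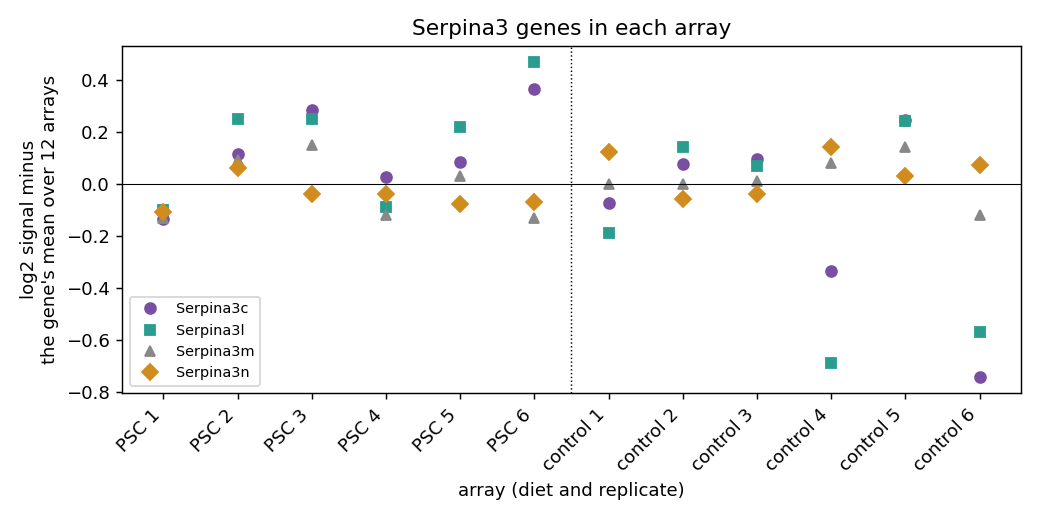
Log2 signal minus the mean of the gene over the 12 arrays (y axis) for 4 Serpina3 genes in each array (x axis, PSC arrays on the left, control arrays on the right). Serpina3c and Serpina3l are lowest in control replicates 4 and 6, where Serpina3n lies above its mean.

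A stretch of 68 bases before the start is shown for 3 of these genes (RefSeq, GRCr8), of which Serpina3l and Serpina3n had values of opposite sign. It was cut around a glucocorticoid receptor type match that each of the 3 holds. Capitals mark matches to TTCNNNGAA, a STAT type site, and to a glucocorticoid receptor type site, GNACA and TGTNC with 3 bases between them, searched on both strands. The stretches lie at chr6:129063072-129063139 on the plus strand for Serpina3l, at chr6:129088264-129088331 on the plus strand for Serpina3n and at chr6:128836906-128836973 on the minus strand for Serpina3m.
Serpina3l: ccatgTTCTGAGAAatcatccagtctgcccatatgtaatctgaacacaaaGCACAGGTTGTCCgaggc
Serpina3n: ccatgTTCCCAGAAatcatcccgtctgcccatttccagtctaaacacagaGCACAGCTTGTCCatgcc
Serpina3m: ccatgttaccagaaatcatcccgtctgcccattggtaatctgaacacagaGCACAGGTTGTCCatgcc
Serpina3l was identical to Serpina3n at 80.9% of the 68 bases and to Serpina3m at 85.3%, and Serpina3n to Serpina3m at 89.7%. The glucocorticoid receptor type match is in all 3 because the stretch was chosen by it. Of the 33469 windows of 250 bases 0.373% hold one. The STAT type match is in Serpina3l and Serpina3n and not in these letters of Serpina3m, and 7.67% of all windows hold one. Among the 37 serpin genes in the promoter table the glucocorticoid receptor type match was found in these 3 genes only.

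The other members of clade A were Serpina5, Serpina9, Serpina12, Serpina16, Serpina1f, Serpina1fl1, Serpina1fl2 and Serpina3j, and none of the 8 passed. Serpina5, which encodes the inhibitor of activated protein C, had -0.06 with mean log2 signals of 5.58 in PSC-fed rats and 5.64 in control rats. Serpina12, the adipokine vaspin, had 0.19 (95% interval -0.02 to 0.40, and 0.12 after cyclic loess normalization) from a dim signal, 3.95 ± 0.16 in PSC-fed rats and 3.76 ± 0.21 in control rats (SD, n = 6). Serpina1fl2, a relative of Serpina1f, had the smallest p of these, with 3.52 ± 0.22 in PSC-fed rats, against 3.29 ± 0.05 in control rats, and an adjusted p of 0.155 (limma). The median of the 18 clade A genes was 0.09, and 12 of the 18 values were above 0. The clade A median was also above 0 under 3 other scalings of the arrays, from 0.05 to 0.08.

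Outside clade A, the liver-made inhibitors of coagulation, fibrinolysis and complement stayed within narrow bounds, and Serpind1 came nearest to the threshold. Serpind1 encodes heparin cofactor II, a thrombin inhibitor. Its log2 signals were 10.48, 10.31, 10.38, 10.38, 10.40 and 10.48 in PSC replicates 1 to 6, against 10.24, 10.27, 10.20, 10.09, 10.23 and 10.21 in control replicates 1 to 6. Every PSC array lay above every control, which held for 1 of 46 serpins and for 0.71% of all genes. The difference of 0.20 (SE 0.05, 95% interval 0.08 to 0.31) had an adjusted p of 0.0618 (limma). It passed as higher when only genes with a mean log2 signal of at least 5 were tested (adjusted p = 0.0256) and with a variance prior that follows the signal (adjusted p = 0.0236). When each array was centred on its median the value was 0.15 with an adjusted p of 0.191.

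Serpinc1 encodes antithrombin, the main inhibitor of thrombin and factor Xa. It averaged 10.88 ± 0.05 in PSC-fed rats and 10.84 ± 0.08 in control rats (SD, n = 6), a difference of 0.04 with a 95% interval from -0.08 to 0.16. Serpinf2, which encodes the plasmin inhibitor antiplasmin, had 0.08 (95% interval -0.03 to 0.19). Serpinf1 encodes PEDF, an antiangiogenic member that inhibits no protease, and had 0.05 (95% interval -0.06 to 0.16). Serping1, which encodes C1 inhibitor, averaged 11.18 ± 0.06 in PSC-fed rats and 11.16 ± 0.07 in control rats, a difference of 0.01 (95% interval -0.10 to 0.13).

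Proteases that serpins inhibit were read from a fixed list of 25 genes, which was not limited to targets of the serpins named above. Of 24 measured, 2 fell and 0 rose, beside 1.89% and 0.716% of all genes. Their median log2 fold change was 0.01, as for all genes. C1s, one of the 2 proteases of the first complement component that C1 inhibitor blocks, had log2 signals of 9.81, 10.25, 10.02, 10.23, 9.95 and 9.66 in PSC replicates 1 to 6, against 10.54, 10.23, 10.37, 10.53, 10.49 and 10.55 in control replicates 1 to 6. It fell by 0.47 on the log2 scale (SE 0.10, limma adjusted p = 0.027), and only control replicate 2 lay as low as PSC replicates 2 and 4. Its partner C1r had -0.28 and did not pass (SE 0.08, 95% interval -0.45 to -0.10, adjusted p = 0.0797). Every PSC array lay below every control for C1r, the nearest at 10.97 and 10.98, as for 1.48% of all genes. Thus C1s and C1r had 95% intervals wholly below 0 while that of Serping1 spanned 0. The difference between these genes was not tested. Ctsl, which encodes the lysosomal protease cathepsin L, fell by 0.37 on the log2 scale (SE 0.09, adjusted p = 0.0386). Prothrombin gene F2 had 0.11 (95% interval -0.0031 to 0.21), and Plg, which encodes plasminogen, had 0.02 (95% interval -0.08 to 0.12).

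Of 24 measured protease inhibitors outside the serpin family 0 passed in either direction, and their median was -0.03. Tfpi, the tissue factor pathway inhibitor, and Timp1, an inhibitor of metalloproteinases, had the smallest p of the list, with -0.36 (limma adjusted p = 0.0593) and -0.54 (adjusted p = 0.067).

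In clade B, whose members act mainly inside cells, 1 of 18 fell and 0 rose, beside 1.89% and 0.716% of all genes. The median of the clade was 0.02, and it was negative, from -0.02 to -0.01, under 3 other scalings of the arrays. According to RefSeq 10 of these genes lie on chromosome 13 and 8 on chromosome 17. Only 4 of the 18, Serpinb6a, Serpinb6b, Serpinb8 and Serpinb9, had a mean log2 signal of at least 5.

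Serpinb9 encodes the inhibitor of granzyme B that shields killer cells, antigen-presenting cells and their neighbours from this protease. Its log2 signals (transcript cluster 17719126) were 7.70, 8.18, 8.21, 8.13, 8.15 and 8.05 in PSC replicates 1 to 6, against 8.71, 8.16, 8.47, 8.75, 8.46 and 8.54 in control replicates 1 to 6. Control replicate 2 lay among the PSC arrays, and the other 5 controls lay above all of them. Serpinb9 averaged 8.07 ± 0.19 in PSC-fed rats and 8.52 ± 0.21 in control rats (SD, n = 6), a fall of 1.36-fold (log2 fold change -0.45, SE 0.11, limma adjusted p = 0.0382). With 1 array left out, 8 of 12 fits lost the call, those without PSC replicates 1, 5 or 6 and control replicates 1, 3, 4, 5 or 6, with adjusted p from 0.0602 to 0.0936. It was also lost after cyclic loess normalization (log2 fold change -0.41, adjusted p = 0.0525). Of 10 measured lymphocyte markers 1 rose and 0 fell, beside 0.716% and 1.89% of all genes. Of their values 2 were negative, and the median log2 fold change was 0.22. Their mean log2 signal lay at 4.32 to 4.47 in PSC arrays and 4.09 to 4.30 in control arrays. Of 10 measured markers of Kupffer cells and macrophages, which present antigen, 1 rose and 0 fell, beside the same shares of all genes. The 1 was Cd163 (0.87, limma adjusted p = 0.0436). The median of these markers was 0.40, 1 value was negative, and their mean log2 signal lay at 7.02 to 7.37 in PSC arrays and 6.15 to 7.13 in control arrays. The part of either cell type in the value of Serpinb9 was not tested. Gzmb, which encodes granzyme B, had -0.06 from a dim signal (95% interval -0.24 to 0.11).

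The 250 bases before the start of Serpinb9 (RefSeq, GRCr8, chr17:31640817-31641066, minus strand) are shown as the sequence of a changed member, with a match to an interferon response type site, GAAA and GAAA with 2 bases between them, in capitals on either strand.
Serpinb9: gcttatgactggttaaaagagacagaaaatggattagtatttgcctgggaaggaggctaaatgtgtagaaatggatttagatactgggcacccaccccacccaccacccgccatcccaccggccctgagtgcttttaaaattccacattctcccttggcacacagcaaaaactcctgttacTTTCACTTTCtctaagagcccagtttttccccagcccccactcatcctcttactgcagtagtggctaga
The match begins 69 bases before the start. It was found in 2 of the 37 serpin genes in the table, Serpinb2 being the other, and in 3.41% of all windows.

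Serpinb8, an inhibitor of furin-like proteases, had a larger value than Serpinb9 with a wider spread. Its log2 signals were 5.22, 5.80, 5.54, 5.82, 5.36 and 4.68 in PSC replicates 1 to 6, against 6.39, 5.58, 5.96, 5.84, 6.05 and 6.00 in control replicates 1 to 6. PSC replicates 2 and 4 lay above the lowest control, and the other 4 below all of them. The difference of -0.57 did not pass (SE 0.17, 95% interval -0.94 to -0.20, limma adjusted p = 0.0938). Serpinb6a and Serpinb6b, relatives of an inhibitor of cathepsin G, had -0.06 (95% interval -0.18 to 0.05) and -0.04 (95% interval -0.23 to 0.14).

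The remaining 14 members of clade B were dim, with mean log2 signals under 5, and none of them passed. They were Serpinb1a, Serpinb1b, Serpinb2, Serpinb3, Serpinb3a, Serpinb5, Serpinb6e, Serpinb6el1, Serpinb7, Serpinb9d, Serpinb10, Serpinb11, Serpinb12 and Serpinb13. Many of their relatives are known from skin, other epithelia and white blood cells. Serpinb3a was 2.34 ± 0.11 in PSC-fed rats and 2.52 ± 0.15 in control rats, and Serpinb3 was 3.42 ± 0.18 in PSC-fed rats and 3.18 ± 0.26 in control rats (SD, n = 6). Serpinb1a, whose human relative inhibits neutrophil elastase, had 0.19 (95% interval -0.05 to 0.43, and 0.12 without control replicate 3). None of 10 markers of neutrophils and mast cells passed, and 8 of their values were negative. All 10 were dim, with mean log2 signals from 1.76 to 4.66, which limits what they can show. Across all clades 24 of the 46 serpins had a mean under 5. Their median was 0.07, beside 0.06 for the 8061 genes of all kinds with such signals.

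Serpinh1, the only member of clade H, is a chaperone of the endoplasmic reticulum that binds procollagen and is needed for collagen folding. It is also a heat shock protein, known as HSP47. Its log2 signals (transcript cluster 17635168) were 6.66, 6.67, 6.87, 6.91, 6.73 and 6.60 in PSC replicates 1 to 6, against 6.99, 7.02, 7.06, 7.15, 6.94 and 7.16 in control replicates 1 to 6. Every PSC array lay below every control, the nearest being PSC replicate 4 and control replicate 5, and this held for 1 of 46 serpins and for 1.48% of all genes. Serpinh1 averaged 6.74 ± 0.12 in PSC-fed rats and 7.05 ± 0.09 in control rats (SD, n = 6), a fall of 1.24-fold (log2 fold change -0.31, SE 0.07, limma adjusted p = 0.0274). With 1 array left out, 7 of 12 fits lost the call, those without PSC replicates 1, 5 or 6 and control replicates 1, 3, 4 or 6. Their adjusted p ran from 0.0532 to 0.066, and the log2 fold change stayed between -0.35 and -0.29 over the 12 fits.

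Markers of stellate cells and fibroblasts, the main collagen-making cells of liver, also had lower values in PSC-fed rats. Of 11 measured 5 fell and 0 rose, beside 1.89% and 0.716% of all genes. The 5 were Dcn, Col1a2, Tagln, Rgs5 and Col3a1. This list was chosen with earlier results of these data known, so its share beside that of all genes is a description and not a test. All 11 values were negative, with a median of -0.34. The mean log2 signal of the 11 markers lay at 6.43 to 6.82 in PSC arrays and 6.83 to 7.09 in control arrays. The groups did not overlap, but only narrowly, with 6.821 in PSC replicate 4 and 6.828 in control replicate 2. PSC replicate 4 was nearest to the controls on this measure as for Serpinh1. The fit without this array also gave the most calls over all genes, 543 lower and 192 higher, beside 343 and 130 with all arrays. The part of this cell type in the fall of Serpinh1 was not tested.

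**Figure D4:**
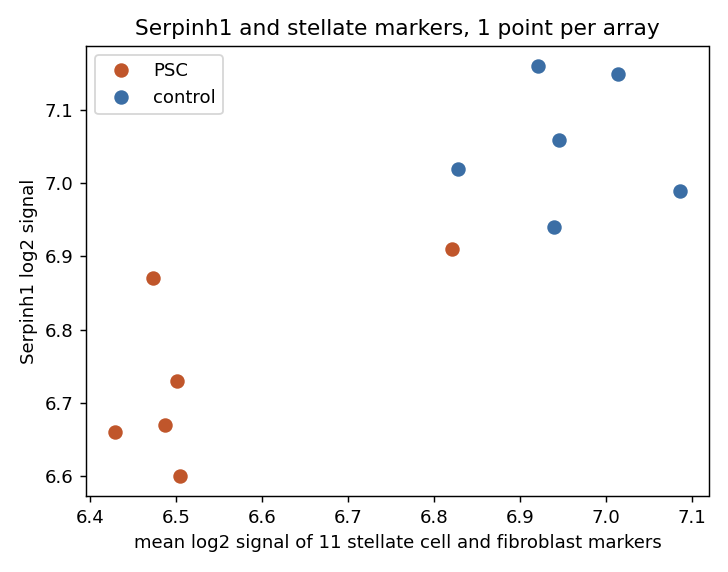
Log2 signal of Serpinh1 (y axis) against the mean log2 signal of 11 stellate cell and fibroblast markers (x axis), with 1 point per array. The 6 PSC arrays lie below the 6 control arrays on both axes, PSC replicate 4 being nearest to them.

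The 250 bases before the start of Serpinh1 (RefSeq, GRCr8, chr1:163062977-163063226, minus strand) are shown because a heat shock element is a known feature of this gene. Capitals mark a match to GAA, TTC and GAA with 2 bases between neighbours, on either strand.
Serpinh1: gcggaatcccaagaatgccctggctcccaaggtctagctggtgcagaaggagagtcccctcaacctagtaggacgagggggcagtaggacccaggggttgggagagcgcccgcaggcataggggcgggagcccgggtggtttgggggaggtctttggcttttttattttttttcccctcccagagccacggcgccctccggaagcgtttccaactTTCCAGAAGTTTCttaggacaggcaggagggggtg
The match begins 35 bases before the start. Of the 37 serpin genes in the table Serpinh1 alone held it, as did 0.663% of all windows.

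In clade E, Serpine2, the cell surface thrombin inhibitor also called protease nexin, averaged 6.58 ± 0.13 in PSC-fed rats and 6.71 ± 0.12 in control rats (SD, n = 6). The difference of -0.13 did not pass (95% interval -0.29 to 0.03, limma adjusted p = 0.357). Serpine3 had 0.10 (95% interval -0.15 to 0.35). In clade I, Serpini1, which encodes the tissue plasminogen activator inhibitor neuroserpin of neurons, had -0.05 (95% interval -0.24 to 0.14), and Serpini2, a gene known from pancreas, had 0.10 (95% interval -0.11 to 0.32). The Serpini genes and Serpine3 had mean log2 signals under 5.

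The serpins also differed in how far rats of one diet varied. For the 10 bright members the SD within a diet lay between 0.02 and 0.12, apart from Serpina3c with 0.18 in PSC-fed rats and 0.36 in control rats. Serpina6 had 0.42 in PSC-fed rats and 0.24 in control rats, and Serpina7 had 0.82 in PSC-fed rats and 0.45 in control rats. Serpina3l had 0.22 in PSC-fed rats and 0.39 in control rats, whereas Serpina1, Serpinc1 and Serping1 had at most 0.0821 in either diet. These spreads are a description, and were not tested against each other.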

How the data were processed

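Liver RNA of 12 rats was measured on 1 array each. The authors deposited log2 signals per transcript cluster, made by RMA in Affymetrix Expression Console, per the submitters' processing notes, with versions and filters not given in the sources used here. RMA equalises the arrays and compresses changes of dim genes, and no detection calls were used.

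Of 30347 transcript clusters 18511 had 1 gene symbol, 575 several and 11261 none in the platform annotation. The brightest cluster by mean stood for a gene, which left 18166 genes. All 46 serpins matched RefSeq (GRCr8) by gene number. Groups came from the titles. Diets were compared with limma 3.58.1 in R 4.3.3 (statmod 1.5.0), in two-sided tests, Benjamini-Hochberg adjusted over all genes at a threshold of 0.05. On simulated data over 18166 genes this found 79% of 100 log2 changes of 0.5 and 99% of 100 log2 changes of 1, and 7.29% of its 192 calls were false.

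The members and lists were chosen with earlier results of these data known, so their shares beside those of all genes are descriptions and not tests. All serpins are accounted for, with values for the 4 of smallest p in each clade (2 in clade B) and the plasma carriers and inhibitors, and per array for those called, both carriers and some others, and for each list the called genes and the 2 with the smallest p. Marker lists, a few further list genes and the promoter stretches were chosen for what they show beside a serpin. The 95% intervals are those of each gene's fit, not adjusted for the number of genes. Promoter windows (37 of 46 serpins matched, RefSeq) were searched for 19 short motifs on both strands, some of them nested in others; those not printed were either absent from the serpins or common core promoter elements. Alternatives tried were all clusters, a filter on dim genes, 3 other scalings, another variance prior, array weights, a replicate block, averaged clusters and leaving out each array. Figures were drawn with matplotlib 3.10.9.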

Additional observations from a re-analysis of the deposited data

Results flagged for a closer look

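In 4 of 92 groups of 6 arrays (46 serpins, both diets) 1 array stood apart from the other 5 by Dixon's criterion, which chance meets in about 1 of 20 groups. Serpinb9 was 7.70 in PSC replicate 1, while the other PSC arrays lay between 8.05 and 8.21. Serpina1 was 11.79 in PSC replicate 4, while the other PSC arrays lay between 11.85 and 11.88. Serpinb6e was 2.29 in PSC replicate 2, with the other PSC arrays between 1.92 and 2.04. Serpinf1 was 12.27 in control replicate 6, with the other control arrays between 12.11 and 12.16.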

How the results depend on the processing

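The count of 3 serpins lower was kept under the dim filter, quantile normalization, median centring, array weights and averaged clusters, and was 2 after cyclic loess (without Serpinb9) and with the variance prior with trend (without Serpina7). It was 0 when all transcript clusters were tested and 0 with the replicate block, and leaving out 1 array gave 0 to 3. Serpins higher were 0, except 1 (Serpind1) under the dim filter and 1 with the variance prior with trend. Without 1 array their count was 0 in each fit. The log2 fold change of Serpina7, Serpinb9 and Serpinh1 was negative under all alternatives run. For Serpina7 the adjusted p was 0.0579 with all clusters, 0.0597 with the variance prior with trend and 0.0521 with the replicate block. With all clusters and with the replicate block, it was 0.0656 and 0.107 for Serpinb9, and 0.0512 and 0.0701 for Serpinh1.

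Over all genes 343 were lower and 130 higher. All clusters gave 198 lower and 56 higher, the dim filter 592 lower, median centring 584 lower and 82 higher, and the replicate block 78 lower and 16 higher. Leaving out 1 array gave 113 to 543 lower and 29 to 192 higher, with both highest counts in the fit without PSC replicate 4. The labels do not say that the replicate numbers of the titles pair the rats. Deviations of same-numbered PSC and control rats correlated at -0.15 to 0.11 across genes. These correlations were not compared with those of rats with different numbers. Median centring moved the median of all genes by -0.045, and with it the median of the serpins was -0.0075.

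Changes of dim serpins are compressed by RMA, and 24 of 46 have mean log2 signals under 5, which limits what can be detected there. P-values rest on the spread among 6 rats per diet, moderated by a variance prior drawn from all genes, and shared cages are not in the model.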
